A study of Mus musculus with 20 samples.

Results

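Liver RNA-Seq values were compared between mice given minocycline (MINO) and mice given vehicle (VEH) at age 18 weeks, 6 weeks after dosing had ended. Of the 20 mice in the series, the 10 of this age were used, chosen by the treatment and age in their labels. Of the 17121 genes in their table, the 13188 whose mean over these 10 libraries reached 1 CPM were tested. The 10 mice of age 12 weeks appear only where they are named.

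Dosing with minocycline, a tetracycline antibiotic, or with vehicle ran from age 6 to 12 weeks. The question at age 18 weeks was which differences in liver expression were present after a period without the drug. Wild-type female C57BL/6T mice 64, 65, 66, 67 and 69 received vehicle, and wild-type female C57BL/6T mice 70, 71, 72, 74 and 75 received minocycline at 100 mg/L, and all were killed at age 18 weeks. At age 12 weeks, when dosing ended, 5 female C57BL/6T mice given vehicle and 5 given minocycline at 100 mg/L were killed. Values per mouse are given below in the order of the mouse numbers. Library depth was 22650000 reads in MINO 70 to 29910000 reads in MINO 74, at which 3 reads are worth 0.132 and 0.1003 CPM. That floor covers counting error only, since PCR copies were not marked and may have been read several times.

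Hepatocyte markers were used to check that the libraries are liver, as labelled. Of 8 hepatocyte genes listed, 7 were in the table and tested, and their sum ran from 73696 CPM in MINO 72 to 101832 CPM in VEH 66. *Alb*, which codes for albumin, was the most abundant and made up 5.30% of the library of MINO 72 and 8.27% of that of VEH 66. Only *Cps1*, which codes for the first enzyme of the urea cycle, passed the unadjusted test, with a log2 fold change of -0.48. By that test, 5.71% of all tested genes were higher in MINO mice and 11.2% lower. The treatment labels could not be checked in this way, because the drug has no target gene in the mouse. No pair of libraries held identical values (0 pairs), and rank correlations between libraries ran from 0.963 to 0.991.

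Several libraries stood apart from the others. In a principal component analysis of the 10 libraries, the first component held 32.6% of the variance. The VEH mice lay between -21.0 and -4.89 on it, whereas MINO 71, 72, 74 and 75 lay at 10.9, 29.1, 6.87 and 33.6. MINO 70 lay at -15.7, inside the range of the VEH mice. Its mean rank correlation was 0.986 with the VEH libraries and 0.975 with the other MINO libraries. MINO 72 and MINO 75 had the lowest mean correlation with all others, 0.972 for each.

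The samples were left liver lobes according to the paper. Genes of adrenal gland, pancreas, fat or muscle are near silent in hepatocytes, and the source of their reads in these libraries was not tested. Marker genes of these tissues were therefore summed in every library. Skeletal muscle markers, 7 listed genes of which *Acta1* was the most abundant, summed to 0.649, 0.630, 1.13, 0.489 and 0.483 CPM in the VEH mice and 1.72, 123, 25.1, 12.9 and 13.98 CPM in the MINO mice. Every MINO library was above every VEH library, and MINO 71 was far above the other MINO libraries. Of the 7 genes, 6, 5, 3, 6 and 6 were under the 3-read floor in the VEH libraries and 1, 0, 0, 0 and 0 in the MINO libraries. Markers of the adrenal cortex, 9 listed genes led by *Cyp21a1*, summed to 2.98, 31.9, 40.2, 4.06 and 446 CPM in the VEH mice and 2.30, 407, 8.43, 149 and 332 CPM in the MINO mice. VEH 69, MINO 71, MINO 74 and MINO 75 held the most, with VEH 66 and VEH 65 next. Under the floor were 7, 2, 0, 5 and 0 of these genes in the VEH libraries and 6, 0, 2, 0 and 0 in the MINO libraries. The 5 markers of the adrenal medulla, led by *Chga*, ran from 0.0869 to 78.6 CPM in VEH mice and from 0.0888 to 40.3 CPM in MINO mice, with VEH 69, MINO 71 and MINO 75 highest. Adipocyte markers, 7 genes in the table led by *Plin4*, summed to 9.68, 11.4, 24.0, 5.10 and 57.8 CPM in VEH mice and 3.71, 60.4, 43.4, 25.1 and 31.1 CPM in MINO mice. At an unadjusted p under 0.05 in limma, 5.71% of all tested genes were higher in MINO mice and 11.2% lower. A count of 0 among so few genes is near such shares. For the adrenal cortex, the adrenal medulla and adipocytes, 0 of 7, 0 of 5 and 0 of 6 tested genes passed the unadjusted test in limma, with median log2 fold changes of 1.12, 0.79 and 0.43. These medians rest on few libraries. Leaving out each mouse in turn gave 0.52 (without MINO 75) to 2.17 (without VEH 69) for the adrenal cortex, 0.58 (without VEH 64, VEH 66 or VEH 67) to 2.27 (without VEH 69) for the medulla and 0.14 (without MINO 71) to 0.94 (without VEH 69) for adipocytes. Without VEH 69, 1 gene of the adrenal cortex and 2 of the medulla passed as higher, and without MINO 70, 1 adipocyte gene did. Exocrine pancreas markers, 13 genes led by *Cela1*, ran from 17.7 to 70.8 CPM in VEH mice and from 11.7 to 21.6 CPM in MINO mice, with VEH 69 highest. Of their 3 tested genes, *Ctrb1*, a digestive protease, passed as lower in MINO mice, and the median was -1.005. Without VEH 69 its mean was under 1 CPM, so that it was not tested, and the median of the list was -0.19. Without VEH 64 or without VEH 67, 2 genes passed. Kidney and pancreatic islet markers could not be summed, since 0 of the genes listed for each were in the table.

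**Figure D1:**
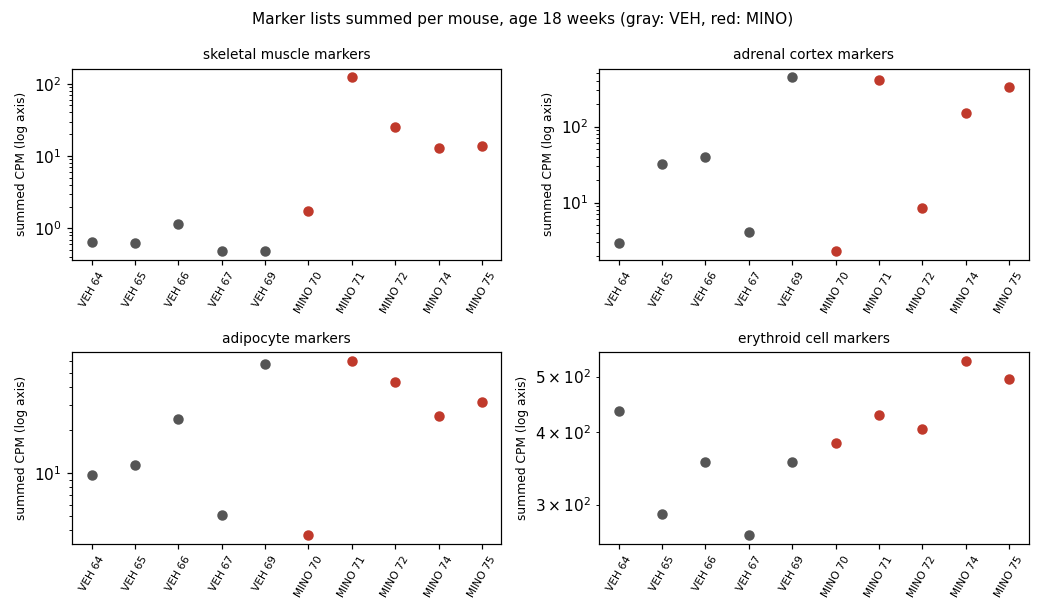
Summed CPM of marker genes of skeletal muscle, adrenal cortex, adipocytes and erythroid cells (log axis) in each VEH and MINO mouse of age 18 weeks, a point per mouse labelled with its number. Skeletal muscle markers lay at 0.483 to 1.13 CPM in VEH mice and 1.72 to 123 CPM in MINO mice, and adrenal cortex markers were highest in VEH 69, MINO 71, MINO 75 and MINO 74.

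The liver makes bile acids from cholesterol, oxidizes and builds fatty acids, and secretes most plasma proteins. Many of its genes follow the daily clock and feeding, and bacterial products that reach it through the portal vein act on its macrophages and on interferon signaling. Antibiotics change the bacteria that modify bile acids, which reach hepatocytes as ligands of nuclear receptors such as FXR.

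The MINO mice were compared with their controls over all tested genes, to see in how many the groups were separate. Such a separation has to be set against how much individual mice differ. For most genes tested the groups overlapped. By limma without adjustment, 753 of the 13188 genes tested (5.71%) were higher in MINO mice at a p under 0.05, and 1475 (11.2%) were lower. No gene (0 of 13188, 0%) had an adjusted limma p under 0.05, against 2228 at an unadjusted p under 0.05. Of the 24 genes with an adjusted p under 0.1, 11 shared the lowest value. The median log2 fold change of all tested genes was -0.04, and 41.5% were above 0. When each library was divided by the median of its gene-wise ratios to the geometric mean library, 1081 genes were higher and 1087 lower, which changed the share of higher genes among those that passed from 33.8% to 49.9%. That division centers the fold changes, so a more even split follows from it. All 5 MINO mice lay above all 5 VEH mice in 154 genes (1.17%) and below them in 254 genes (1.93%).

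MINO 70 often lay among the VEH mice. Of the 2228 genes that passed without adjustment, MINO 70 lay inside the range of the VEH mice in 1269 (57.0%). For MINO 71, 72, 74 and 75 this held in 669 (30.0%), 356 (16.0%), 608 (27.3%) and 222 (9.96%). Without MINO 70, 1107 genes were higher and 1928 lower by the unadjusted test, and 323 genes had an adjusted limma p under 0.05. Higher genes numbered 511 without MINO 75 and 947 genes were lower without VEH 65. No label gives a reason to set MINO 70 aside, and all counts and values include it unless said otherwise. Whether MINO 70 is labelled rightly could not be checked from these values. Without VEH 69, MINO 71, MINO 74 and MINO 75, the libraries highest in adrenal markers, 422 genes were higher and 491 lower. That comparison has 4 VEH mice and 2 MINO mice.

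A 2-fold difference between groups sets aside small shifts shared by many genes and brings up genes that are low or near absent in a group. Muscle genes are the clearest case here. They are silent in hepatocytes, so that few reads give a large ratio. By an unadjusted p under 0.05 and at least 2-fold, 32 genes (0.243%) were higher and 20 (0.152%) were lower in MINO mice. Of the 32, 17 had a VEH mean under 1 CPM, and 6 were in the list of skeletal muscle markers. *Acta1*, skeletal muscle actin, was at 0.0001, 0.0421, 0.131, 0.0432 and 0.0805 CPM in the VEH mice and 0.309, 51.8, 9.90, 5.12 and 4.35 CPM in the MINO mice. *Ckm*, muscle creatine kinase, was at 0.0001, 0.0001, 0.131, 0.0406 and 0.0805 CPM in the VEH mice and 0.177, 19.7, 3.02, 2.11 and 2.47 CPM in the MINO mice. A value of 0.0001 stands for no reads, and MINO 71 was highest for both genes. The 6 tested muscle markers had a median log2 fold change of 2.48, or 4.01 with a pseudocount of 0.1. All 6 passed as higher by the unadjusted test, against 5.71% of all tested genes. With linear CPM, 0 of the 6 passed by limma at an unadjusted p under 0.05. The filter favored that direction, because with low VEH values these genes reached a mean of 1 CPM mainly through the MINO libraries. Without MINO 71 the only muscle marker of the list at that mean was *Acta1*, which passed, with a log2 fold change of 2.80, and the other 5 were not tested. Fewer cells and less RNA per cell cannot be told apart in bulk tissue, here or for any list that follows. Other 2-fold higher genes from muscle, such as *Mb* and *Ttn*, peaked in MINO 71 as well, at 10.9 and 12.8 CPM. *Mb* codes for myoglobin and *Ttn* for titin, the spring of the sarcomere. Among the 2-fold genes, 13 of the 32 higher and 5 of the 20 lower had groups that did not overlap, against 1.17% and 1.93% of all tested genes, though selection by p and fold favors such genes. Without MINO 75, 25 genes were 2-fold higher, and without MINO 70, 56 were higher and 35 lower. Of the 50-base stretches of the longest transcript, more than 50% also occurred in other genes for 5 of the 32 and 6 of the 20, so reads of these genes could have been shared among relatives.

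The genes with the lowest p serve various functions and are described singly. Each of the genes below had groups that did not overlap and kept an unadjusted p under 0.05 when any 1 mouse was left out. *Igha*, the constant part of IgA, was at 5.57, 6.17, 3.96, 2.63 and 7.36 CPM in the VEH mice and 0.486, 0.892, 1.03, 0.0335 and 1.61 CPM in the MINO mice. IgA is secreted by plasma cells that respond to gut bacteria. No MINO mouse reached the lowest VEH mouse, with means of 5.14 ± 1.86 and 0.809 ± 0.591 CPM (SD, n = 5). The log2 fold change of *Igha* was -2.18, with a standard error (SE) of 0.34 and adjusted p = 0.0863 by limma. Its exact permutation p was 0.00794, the smallest that 252 assignments of 5 and 5 mice can give. *Fam13a*, a gene tied to fat distribution, was at 32.7, 45.8, 40.8, 42.8 and 36.8 CPM in the VEH mice and 25.8, 20.4, 25.3, 16.5 and 17.2 CPM in the MINO mice. No mouse of 1 group lay inside the other, and the log2 fold change was -0.92 (SE 0.14, adjusted p = 0.0863 by limma). *E2f8*, a repressor of cell cycle genes, was at 1.35, 1.19, 2.17, 1.24 and 2.08 CPM in the VEH mice and 2.80, 4.82, 3.72, 3.86 and 4.13 CPM in the MINO mice. Every MINO mouse was above every VEH mouse, with a log2 fold change of 1.06 (SE 0.18, adjusted p = 0.0863 by limma). Lower in MINO mice with the same adjusted p were *Snai2* (-0.76), *Acox2* (-0.59), *Ikbke* (-0.67) and *Rab23* (-0.69). *Tmed5*, which takes part in transport from the endoplasmic reticulum, was higher by 0.61. All of these are log2 fold changes.

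PPARα is a nuclear receptor that turns on genes for fatty acid oxidation during fasting. Its targets include the acyl-CoA thioesterases of the *Acot* cluster, which free fatty acids from coenzyme A. Of 24 tested genes of this list, 10 (41.7%) were higher in MINO mice and 0 lower, against 5.71% and 11.2% of all tested genes. Their median log2 fold change was 0.19, against -0.04 for all tested genes. Summed CPM was 9427, 8820, 9410, 8818 and 8549 in the VEH mice and 9545, 11245, 10733, 11382 and 11761 in the MINO mice, most of it *Fabp1*. Every MINO mouse lay above every VEH mouse, MINO 70 by the least. *Acot4* was at 149, 134, 148, 99.1 and 142 CPM in the VEH mice and 218, 268, 192, 250 and 221 CPM in the MINO mice. Its groups did not overlap, at 134 ± 20.6 and 230 ± 29.5 CPM (SD, n = 5), and the log2 fold change was 0.78 (SE 0.12, adjusted p = 0.0863 by limma). *Acot2*, the mitochondrial member, was at 8.58, 7.28, 7.60, 6.25 and 6.32 CPM in the VEH mice and 8.44, 13.6, 10.2, 14.9 and 15.0 CPM in the MINO mice. MINO 70 was just below VEH 64, and the other MINO mice were above all VEH mice. The log2 fold change of *Acot2* was 0.72 (SE 0.16, adjusted p = 0.131 by limma), with an exact permutation p of 0.0159. *Acot1*, the cytosolic member, was at 15.4, 12.4, 32.2, 25.7 and 15.4 CPM in the VEH mice and 17.4, 45.6, 28.4, 67.2 and 68.9 CPM in the MINO mice. MINO 70 and MINO 72 lay inside the VEH range, and the log2 fold change was 1.06 (SE 0.36, adjusted p = 0.209 by limma). *Slc25a20*, which carries acylcarnitines into mitochondria, was at 81.6, 74.3, 94.9, 85.9 and 81.8 CPM in the VEH mice and 91.5, 118, 101, 112 and 129 CPM in the MINO mice. MINO 70 alone was inside the VEH range, and the log2 fold change was 0.39 (SE 0.10, adjusted p = 0.156 by limma). These 4 genes kept an unadjusted p under 0.05 when any 1 mouse was left out, as did *Acot3*, at 1.51. The stretches of 50 bases shared with other genes were 18.7% for *Acot1*, 27.7% for *Acot2*, 19.5% for *Acot3* and 4.87% for *Acot4*, so the cluster's reads could have been divided differently. No single library moved the count of 10 by over 1.5 times, while 5 passed with the 4 mice per group that the paper lists, which leaves out VEH 65 and MINO 75. Without the 4 libraries highest in adrenal markers, 3 were higher, 1 was lower and the median was -0.01. The nuclear receptor site AGGTCA was sought in 300 bases around the transcription start, with promoters from the RefSeq table. It occurred in 7 of 17 list members with a promoter (41.2%), against 16% of all promoters and 12.8% of those of tested genes. Among the 8 members with a promoter that passed the unadjusted test, 3 (37.5%) had the site. Its direct repeat AGGTCANAGGTCA occurred in 0 of 17 and in 0.0444% of all promoters.

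**Figure D2:**
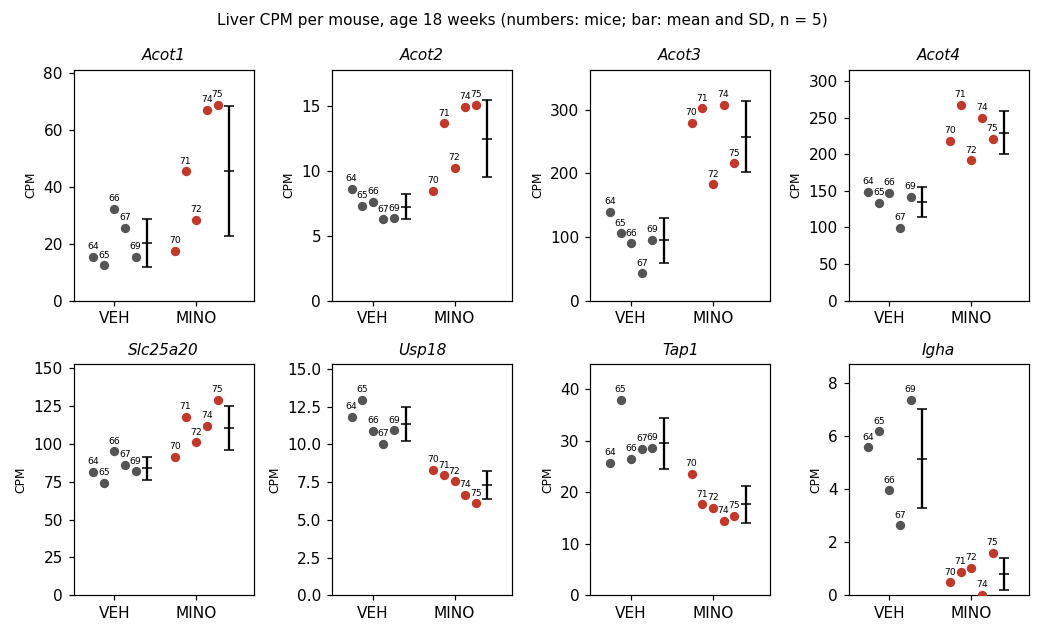
CPM of *Acot1*, *Acot2*, *Acot3*, *Acot4*, *Slc25a20*, *Usp18*, *Tap1* and *Igha* in VEH and MINO mice of age 18 weeks, with a point per mouse labelled by its number and bars for the mean and SD (n = 5). *Acot4* ran from 99.1 to 149 CPM in VEH mice and 192 to 268 CPM in MINO mice, and *Igha* from 2.63 to 7.36 and 0.0335 to 1.61 CPM.

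The daily clock of hepatocytes runs on CLOCK and BMAL1, which switch on *Cry*, *Per* and *Nr1d1* through E-boxes, and on NR1D1, which represses BMAL1 in turn. Transcripts of these genes swing over the day, so the hour at which a liver is taken weighs on their level. The labels do not give that hour. Of 23 tested clock genes, 2 (8.70%) were higher and 6 (26.1%) lower in MINO mice, against 5.71% and 11.2% of all tested genes. The median log2 fold change of the list was -0.13. *Nr1d1*, which codes for the repressor REV-ERBα, was at 79.7, 81.5, 64.8, 179 and 117 CPM in the VEH mice and 72.1, 19.5, 45.2, 9.47 and 7.29 CPM in the MINO mice. MINO 70 lay inside the VEH range and the other MINO mice below it (exact permutation p = 0.0159). With all mice, the log2 fold change of *Nr1d1* was -2.16. *Cry1*, a repressor of CLOCK and BMAL1, was at 7.74, 7.01, 8.44, 7.69 and 7.52 CPM in the VEH mice and 8.57, 20.02, 11.9, 27.3 and 39.8 CPM in the MINO mice. The groups did not overlap, though MINO 70 was close to VEH 66, and the log2 fold change was 1.23 (SE 0.32, adjusted p = 0.155 by limma). *Bhlhe41*, which codes for the E-box repressor DEC2, was at 3.68, 5.83, 2.21, 4.07 and 4.73 CPM in the VEH mice and 3.72, 1.40, 2.40, 0.635 and 0.353 CPM in the MINO mice. MINO 70 and MINO 72 overlapped the VEH mice, and the log2 fold change was -1.25 (SE 0.39, adjusted p = 0.185 by limma). *Cry2* was lower by a smaller margin, with a log2 fold change of -0.36 (SE 0.10, adjusted p = 0.168 by limma). Each of these 4 genes kept an unadjusted p under 0.05 without any 1 mouse, but 3 clock genes rather than 6 were lower without VEH 65, VEH 66 or VEH 69, and 3 after rescaling. Without the 4 libraries highest in adrenal markers, 0 clock genes were higher and 0 lower by limma at an unadjusted p under 0.05, and *Nr1d1* had a log2 fold change of -0.70. That comparison keeps only MINO 70 and MINO 72 of the MINO mice.

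The order of the MINO mice in *Nr1d1* recurred in other genes. Among 13187 genes compared with *Nr1d1* over the 10 mice, the 5 most alike were *Tbc1d10a*, *Gjb1*, *Tns2*, *Trib3* and *Lgals9*. For *Tns2*, which codes for a focal adhesion protein, Pearson's r was 0.979 and Spearman's rho was 1 (n = 10). Without MINO 74 and MINO 75, the mice farthest from the median of *Nr1d1* on the log2 scale used for these correlations, r was 0.975. For *Trib3*, a pseudokinase induced by stress and insulin, r was 0.975, rho 0.976 and r without these mice 0.986 (n = 10). *Gjb1*, which codes for the gap junction protein connexin 32, had r of 0.980, rho of 1 and r of 0.946 without them (n = 10). These values describe likeness among genes picked for it, and no p is given. *Trib3* was at 11.6, 9.10, 9.05, 18.8 and 14.4 CPM in the VEH mice and 8.88, 2.67, 5.19, 2.41 and 2.15 CPM in the MINO mice. There was no overlap, with MINO 70 just below VEH 66, and the log2 fold change was -1.59 (SE 0.33, adjusted p = 0.116 by limma). *Klf10*, a clock-driven repressor, ran from 26.8 to 38.3 CPM in the VEH mice and was at 30.7, 13.7, 28.0, 15.0 and 10.1 CPM in the MINO mice. MINO 70 and MINO 72 again lay inside the VEH range, and the log2 fold change was -0.84 (SE 0.26, adjusted p = 0.185 by limma).

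**Figure D3:**
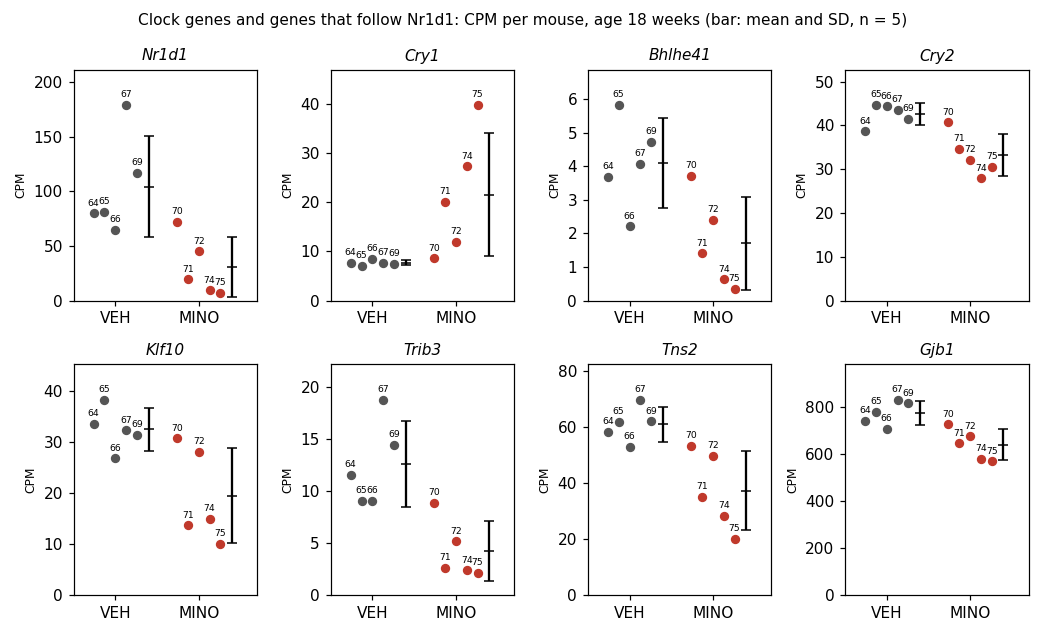
CPM of *Nr1d1*, *Cry1*, *Bhlhe41*, *Cry2*, *Klf10*, *Trib3*, *Tns2* and *Gjb1* in VEH and MINO mice of age 18 weeks, with a point per mouse labelled by its number and bars for the mean and SD (n = 5). MINO 70 sits among or next to the VEH mice in each plot, for example at 72.1 CPM for *Nr1d1*, where MINO 75 is at 7.29 CPM.

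E-boxes, the sites of CLOCK and BMAL1, were sought as CACGTG in 300 bases around the transcription start. The search covered 27025 genes in the RefSeq table of GRCm38. E-boxes occurred in 5 of 17 clock genes with a promoter (29.4%), against 7.24% of all promoters and 10.3% of those of 9504 tested genes. Of the 5 clock genes with a promoter that passed the unadjusted test, 2 had an E-box, *Cry1* and *Bhlhe41*, named after their values were seen. Their sequences are printed because they are the promoters in question, along the gene's strand, with the E-box in capitals. *Cry1* lies on the minus strand, with this stretch at chr10:85185005-85185304, and *Bhlhe41* on the minus strand, with its stretch at chr6:145865371-145865670. The promoters of *Nr1d1* and *Cry2* held no E-box in this window. The stretches of *Cry1*, *Bhlhe41*, *Nr1d1* and *Cry2* extend past the start of the gene.

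Cry1: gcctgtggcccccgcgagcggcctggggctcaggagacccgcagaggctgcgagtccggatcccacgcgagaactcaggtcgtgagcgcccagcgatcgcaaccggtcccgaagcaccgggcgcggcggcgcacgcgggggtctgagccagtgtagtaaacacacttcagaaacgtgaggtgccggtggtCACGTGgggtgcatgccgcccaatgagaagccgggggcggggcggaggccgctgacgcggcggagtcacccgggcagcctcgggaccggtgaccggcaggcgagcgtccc

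Bhlhe41: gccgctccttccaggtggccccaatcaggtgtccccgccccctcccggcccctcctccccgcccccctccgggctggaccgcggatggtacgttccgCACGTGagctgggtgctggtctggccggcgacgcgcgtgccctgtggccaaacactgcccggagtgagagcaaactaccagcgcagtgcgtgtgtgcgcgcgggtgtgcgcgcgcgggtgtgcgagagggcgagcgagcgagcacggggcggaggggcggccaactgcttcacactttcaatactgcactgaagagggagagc

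Bile acids are made from cholesterol by a chain of enzymes, exported by ABC transporters, and sensed by FXR, which with FGF15 from the gut lowers their synthesis. CYP7A1 is the rate-limiting enzyme. Of 17 tested genes of synthesis and conjugation, 2 were higher and 2 lower (11.8% each), against 5.71% and 11.2% of all tested genes, with a median log2 fold change of -0.04. That median ran from -0.09 without VEH 64 to 0.03 without VEH 69. *Hsd3b7*, an enzyme that acts on the sterol ring early in synthesis, was at 280, 358, 331, 512 and 388 CPM in the VEH mice and 305, 244, 214, 188 and 171 CPM in the MINO mice. MINO 70 lay inside the VEH range and the others below it, and the log2 fold change was -0.74 (SE 0.17, adjusted p = 0.140 by limma). *Acox2*, a peroxisomal oxidase that shortens the side chain, was at 121, 121, 133, 147 and 129 CPM in the VEH mice and 105, 88.0, 81.7, 86.6 and 72.1 CPM in the MINO mice. The groups did not overlap. *Scp2*, the thiolase of the same pathway, was higher in all MINO mice than in all VEH mice, with a log2 fold change of 0.24, and *Slc27a2* was higher by 0.26. *Slc27a2* did not pass without VEH 67 (0.19), VEH 69 (0.24), MINO 71 (0.21) or MINO 74 (0.23). The higher count was 4 without VEH 65 and 1 without VEH 67, VEH 69 or MINO 71, and the lower count was 4 without MINO 70. Of the 50-base stretches of *Hsd3b7* 70.5%, and of *Scp2* 41.4%, also occurred in other genes. *Cyp7a1* itself did not pass over all 10 mice, with a log2 fold change of 0.52 (exact permutation p = 0.310). That value ran from 0.26 without VEH 67 to 0.81 without VEH 65, was 0.33 without MINO 71, and passed the unadjusted test without VEH 65. With the 4 mice per group that the paper lists it was 1.05 and passed as well. *Cyp8b1*, *Cyp27a1*, *Cyp7b1*, *Slc27a5* and *Baat*, further enzymes of synthesis and conjugation, and *Nr0b2* did not pass, with log2 fold changes from -0.23 (*Slc27a5*) to 0.21 (*Cyp8b1*). *Cyp8b1* ran from -0.07 without VEH 66 to 0.45 without MINO 72, and *Cyp7b1* from -0.04 without MINO 71 to 0.19 without MINO 75, so neither kept its sign. *Slc27a5* ran from -0.33 without MINO 70 to -0.10 without MINO 72 and *Nr0b2* from -0.47 without VEH 66 to -0.01 without MINO 75.

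Transporters move bile acids into bile, and FXR with its partners adjusts their genes. Of 13 tested genes of bile acid and sterol transport, 0 were higher and 3 (23.1%) lower, against 5.71% and 11.2% of all tested genes, with a median log2 fold change of -0.18. *Abcb11*, the bile salt export pump, was at 453, 559, 587, 763 and 555 CPM in the VEH mice and 480, 328, 370, 367 and 387 CPM in the MINO mice. MINO 70 alone was inside the VEH range, and the log2 fold change was -0.58 (SE 0.13, adjusted p = 0.131 by limma). *Abcc2* and *Abcg8* were lower by less, and lost an unadjusted p under 0.05 without any of 4 and any of 6 mice. For *Abcc2* the mice were VEH 65 (-0.22), VEH 66 (-0.21), MINO 74 (-0.25) and MINO 75 (-0.18). For *Abcg8* they were VEH 64 (-0.35), VEH 65 (-0.39), VEH 66 (-0.30), VEH 69 (-0.37), MINO 74 (-0.37) and MINO 75 (-0.27). The lower count was 1 without VEH 65, VEH 66 or MINO 75, 5 without VEH 67, and 1 after rescaling, and 1 gene was higher without MINO 72 or MINO 75. Of 8 tested genes of FXR and FGF15 signaling, 1 (12.5%) was higher and 3 (37.5%) were lower, with a median of -0.21. The shares of all tested genes were again 5.71% and 11.2%. With the 4 mice per group that the paper lists, 1 gene of this list was lower. *Rxra*, the partner of FXR in its dimer, was at 353, 411, 450, 382 and 349 CPM in the VEH mice and 330, 327, 265, 324 and 259 CPM in the MINO mice. The groups did not overlap, and the log2 fold change was -0.37 (SE 0.10, adjusted p = 0.168 by limma). *Klb*, the coreceptor of FGF15, and *Nr5a2*, an activator of bile acid synthesis, had log2 fold changes of -0.45 and -0.36. *Nr1h4*, which codes for FXR, was higher by 0.25 and did not pass without VEH 65 (0.24), VEH 66 (0.23), VEH 69 (0.24), MINO 70 (0.18) or MINO 71 (0.24). *Fgfr4*, the receptor of FGF15, did not pass, with a log2 fold change of -0.10.

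Cholesterol is built from acetyl-CoA by enzymes that SREBP2 turns on when sterols run low. These enzymes rise and fall together. All 24 tested genes of cholesterol synthesis and uptake had a log2 fold change below 0, with a median of -0.36. By the unadjusted test 12 (50%) were lower and 0 higher, against 11.2% and 5.71% of all tested genes. Summed CPM was 4712, 6911, 4731, 6547 and 6449 in the VEH mice and 5428, 4900, 4721, 4430 and 3791 in the MINO mice. VEH 64 and VEH 66 lay among the MINO mice, so the groups overlapped. *Srebf2*, which codes for SREBP2, was at 58.4, 71.2, 59.0, 66.2 and 63.6 CPM in the VEH mice and 46.9, 60.8, 50.4, 47.2 and 44.6 CPM in the MINO mice. MINO 71 alone was inside the VEH range, and the log2 fold change was -0.35 (SE 0.10, adjusted p = 0.168 by limma). *Sqle*, which codes for squalene epoxidase, was at 89.1, 169, 96.9, 150 and 162 CPM in the VEH mice and 80.3, 105, 110, 75.5 and 64.6 CPM in the MINO mice. MINO 71 and MINO 72 were above VEH 64 and VEH 66, and the log2 fold change was -0.59 (SE 0.20, adjusted p = 0.208 by limma). *Mvk*, mevalonate kinase, was lower by -0.71 on the log2 scale and kept an unadjusted p under 0.05 without any 1 mouse, as did *Srebf2* and *Sqle*. The count of 12 was 3 without VEH 65, VEH 69 or MINO 75, 4 without VEH 67 and 5 without MINO 74. It was 10 after rescaling, 4 without moderation, 5 without both MINO 72 and MINO 75, 1 with the 4 mice per group that the paper lists, and 2 without the 4 libraries highest in adrenal markers. The sterol regulatory element TCACNCCAC occurred in 1 of 16 promoters of the list, against 1.22% of all promoters. Of 20 tested genes of fatty acid synthesis, 2 (10%) were higher and 3 (15%) lower, against 5.71% and 11.2% of all tested genes. The median of this list was -0.11. *Fads2*, a desaturase, was higher by 0.42 and *Acss2*, which makes acetyl-CoA from acetate, had a log2 fold change of -0.72. The higher count was 4 without VEH 65 and 1 without VEH 66, VEH 69 or MINO 75, and the lower count was 1 without VEH 65, VEH 67 or MINO 75 and 5 without VEH 66. With the 4 mice per group that the paper lists, 4 were higher and 0 lower, and without the 4 libraries highest in adrenal markers 0 were higher and 0 lower, by limma at an unadjusted p under 0.05.

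Interferons induce antiviral genes, and livers hold a basal level of this response that bacterial signals sustain. Among all tested genes, 5.71% were higher and 11.2% lower. Of 28 tested interferon response genes, 0 were higher and 10 (35.7%) lower in MINO mice, with a median log2 fold change of -0.24. Their summed CPM was 906, 1233, 1051, 950 and 1117 in the VEH mice and 851, 952, 946, 872 and 891 in the MINO mice. MINO 71 was above VEH 64 and VEH 67 and MINO 72 above VEH 64, and the other MINO mice were below all VEH mice. *Usp18*, which removes ISG15 from proteins, was at 11.8, 13.0, 10.9, 10.04 and 10.9 CPM in the VEH mice and 8.30, 7.94, 7.54, 6.65 and 6.11 CPM in the MINO mice. The groups did not overlap, at 11.3 ± 1.11 and 7.31 ± 0.910 CPM (SD, n = 5), and the log2 fold change was -0.60 (SE 0.11, adjusted p = 0.0870 by limma). *Tap1*, which carries peptides to MHC class I, was at 25.7, 38.0, 26.5, 28.5 and 28.7 CPM in the VEH mice and 23.6, 17.7, 17.0, 14.5 and 15.4 CPM in the MINO mice. The groups did not overlap, and the log2 fold change was -0.73 (SE 0.14, adjusted p = 0.0972 by limma). *Ifit3* had a log2 fold change of -0.48 and groups that did not overlap. Stretches of 50 bases shared with other genes made up 51.2% of *Ifit3*. These 3 genes kept an unadjusted p under 0.05 without any 1 mouse, and no single library moved the count of 10 by over 1.5 times. It was 6 with the 4 mice per group that the paper lists and 6 without the 4 libraries highest in adrenal markers. Of 6 tested genes of MHC class II presentation, 2 (33.3%) were lower and the median was -0.39. That count was 4 without VEH 64 or MINO 75, 1 without VEH 65, and 0 by limma at an unadjusted p under 0.05 without VEH 66, VEH 67, VEH 69, MINO 70 or MINO 71.

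The interferon element GAAANNGAAA was sought in the same promoters. It occurred in 14 of 22 interferon response genes with a promoter (63.6%), against 3.49% of all promoters, and in 4 of the 8 that passed the unadjusted test. The promoter of *Ifit3* is shown because this gene passed and has 2 matches, which lie on the reverse strand, so that the capitals below are its reverse complement. It lies on the plus strand at chr19:34583279-34583578 in the RefSeq table of GRCm38. *Tap1* had no match in this window.

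Ifit3: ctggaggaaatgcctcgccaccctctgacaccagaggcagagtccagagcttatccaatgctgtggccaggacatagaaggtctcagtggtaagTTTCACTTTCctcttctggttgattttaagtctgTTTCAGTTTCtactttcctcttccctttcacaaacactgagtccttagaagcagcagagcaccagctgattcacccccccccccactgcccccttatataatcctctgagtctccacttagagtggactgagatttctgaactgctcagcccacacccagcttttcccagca

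Growth hormone acts on the liver through STAT5 and raises IGF-1, the main growth factor that the liver sends to bone. Its pulse pattern also sets the difference between female and male livers. Of 15 tested genes of growth hormone and STAT5 signaling, 3 (20%) were higher and 0 lower, against 5.71% and 11.2% of all tested genes. The median log2 fold change of the list was 0.15. *Igf1* was at 648, 605, 612, 528 and 701 CPM in the VEH mice and 734, 885, 1013, 722 and 709 CPM in the MINO mice. There was no overlap, with MINO 75 just above VEH 69, and the log2 fold change was 0.38 (SE 0.11, adjusted p = 0.178 by limma). *Igfals*, which codes for a carrier of IGF-1 in blood, was higher by 0.33, and did not pass without MINO 71 (0.27). *Socs2*, a brake on growth hormone signaling, was the other gene, and no single library moved this count by over 1.5 times. Lower genes numbered 2 without VEH 69 and 1 without VEH 64, VEH 66, MINO 70 or MINO 74. Of 14 tested female-biased genes, 2 were higher and 2 lower (14.3% each), against 5.71% and 11.2% of all tested genes. Their median was 0.08. *Cyp17a1*, a steroid hydroxylase, was lower by -0.54 on the log2 scale, with groups that did not overlap. The higher count among female-biased genes was 1 without VEH 67, VEH 69, MINO 70 or MINO 74. Of 11 tested male-biased genes, 0 passed in limma in either direction at an unadjusted p under 0.05, and the median was 0.08. That median ran from -0.01 without MINO 71 to 0.19 without MINO 75. Of these genes 3 were higher without VEH 64, 2 without MINO 71, and 1 without VEH 69, MINO 74 or MINO 75, and 1 was lower without VEH 65, MINO 72 or MINO 75.

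Ribosomal protein genes are short, abundant and expressed in step, so small shifts of library composition could move them as a block. Whether that happened here was not tested. Minocycline binds bacterial ribosomes and can also reach those of mitochondria. Among all tested genes, 5.71% were higher and 11.2% lower, and 41.5% had a log2 fold change above 0. Of 72 tested cytosolic ribosomal protein genes, 23 (31.9%) were higher and 0 lower, 71 had a log2 fold change above 0, and the median was 0.26. Their summed CPM was 6083, 4967, 4889, 5942 and 5608 in the VEH mice and 6144, 5879, 7516, 5640 and 6675 in the MINO mice. MINO 71 and MINO 74 lay inside the VEH range, and MINO 72 was highest. The count was 36 after rescaling, 35 without VEH 64, 42 without MINO 74, 13 without VEH 65, VEH 66 or MINO 72, and 12 without MINO 75. It was 6 with the 4 mice per group that the paper lists and 6 without both MINO 72 and MINO 75. Of 78 tested mitochondrial ribosomal protein genes, 10 (12.8%) were higher and 0 lower, with a median of 0.10, and 21 were higher after rescaling. No single library moved that count of 10 by over 1.5 times, and without both MINO 72 and MINO 75 it was 4. Of these genes 1 was lower without VEH 66 or MINO 70. All 13 mitochondrially encoded genes had a log2 fold change above 0, with a median of 0.27, and 4 (30.8%) were higher. Their sum was 61917, 56508, 52989, 44534 and 54744 CPM in the VEH mice and 46578, 62050, 79184, 60210 and 68666 CPM in the MINO mice. MINO 70 and MINO 74 lay inside the VEH range, and MINO 72 was highest. The count of 4 was 2 without VEH 65, VEH 66 or MINO 75, 1 without VEH 67 or MINO 72, and 9 without MINO 70. Without both MINO 72 and MINO 75, or with the 4 mice per group that the paper lists, it was 0 by limma at an unadjusted p under 0.05.

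Cells other than hepatocytes make up a small share of liver RNA. The percentages of each list here stand beside 5.71% higher and 11.2% lower among all tested genes. Kupffer cells are the resident macrophages, sinusoidal endothelial cells line the vessels, and stellate cells store vitamin A and lay down matrix. Of 10 tested Kupffer cell genes, led by *Clec4f*, 0 passed in limma at an unadjusted p under 0.05, and the median log2 fold change was 0.04, from -0.08 without MINO 74 to 0.18 without MINO 70. Their sum ran from 157 to 267 CPM in VEH mice and from 151 to 319 CPM in MINO mice. Of 9 tested genes of sinusoidal endothelial cells, led by *Ptprb*, 1 (11.1%) was higher and 0 lower, with a median of -0.11, from -0.16 without MINO 74 to -0.03 without MINO 70. Their sum ran from 179 to 243 CPM in VEH mice and from 170 to 239 CPM in MINO mice. The higher gene, *Lyve1*, did not pass without VEH 69 (0.36), MINO 72 (0.41), MINO 74 (0.39) or MINO 75 (0.39), and 1 gene was lower without MINO 74. Of 10 tested stellate cell genes, led by *Dcn*, 5 (50%) were lower and 0 higher, with a median of -0.23. Their sum ran from 227 to 267 CPM in VEH mice and from 200 to 252 CPM in MINO mice. This count was 3 without VEH 65, VEH 66, VEH 69, MINO 70 or MINO 72, 2 without MINO 75, 1 without VEH 67 or MINO 71, and 1 after rescaling, and 1 gene was higher without VEH 69, MINO 70 or MINO 74. The lower count was 2 with the 4 mice per group that the paper lists, and 0 by limma at an unadjusted p under 0.05 without the 4 libraries highest in adrenal markers. Of 27 tested genes of collagens and extracellular matrix, 2 (7.41%) were higher and 4 (14.8%) lower, against 5.71% and 11.2% of all tested genes. The median of this list was -0.12. *Col27a1*, a fibrillar collagen, was at 9.12, 10.4, 8.48, 6.43 and 8.69 CPM in the VEH mice and 8.65, 25.4, 20.8, 25.8 and 51.3 CPM in the MINO mice. MINO 70 lay inside the VEH range and the others were above it, and the log2 fold change was 1.37 (SE 0.34, adjusted p = 0.140 by limma). The higher count was 1 without VEH 64, VEH 66, MINO 71, MINO 74 or MINO 75.

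Blood cells in the vessels add their own transcripts. The shares below stand beside 5.71% higher and 11.2% lower among all tested genes. Of 5 tested erythroid genes, led by *Hba-a2*, 3 (60%) were higher and 0 lower, with a median log2 fold change of 0.44. Their sum was 435, 289, 356, 266 and 356 CPM in the VEH mice and 384, 428, 405, 532 and 495 CPM in the MINO mice. VEH 64 was above MINO 70, MINO 71 and MINO 72, and 0 genes passed in limma at an unadjusted p under 0.05 without the 4 libraries highest in adrenal markers. *Hba-a1* and *Hba-a2* shared 67.5% and 86.9% of their 50-base stretches with each other, and *Hbb-bs* and *Hbb-bt* 65.8% and 58.3%. Reads could therefore have been divided between the genes of a pair, which do not count as separate. Of 4 tested plasma cell genes, *Ighm* and *Igkc* were higher (50%) and *Igha* was lower (25%), with a median of 0.22. *Ighm*, the constant part of IgM, was at 4.80, 12.6, 4.74, 8.34 and 8.004 CPM in the VEH mice and 13.2, 10.9, 13.3, 12.7 and 11.6 CPM in the MINO mice. VEH 65 alone overlapped the MINO mice, and the log2 fold change was 0.73 (SE 0.22, adjusted p = 0.178 by limma). *Igkc*, the kappa light chain, was higher by 0.47, and did not pass without VEH 64 (0.49), VEH 65 (0.42), VEH 66 (0.40), VEH 67 (0.45), MINO 71 (0.39) or MINO 72 (0.33). None of the T and NK cell, B cell or neutrophil genes reached the mean for testing (0 of each list). Their sums were 3.17 to 5.18, 0.696 to 2.98 and 0.261 to 1.02 CPM.

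Other lists touch on how the liver handles sugar, stress and foreign compounds. Of 25 tested immediate early genes, which respond to growth factors and stress within minutes, 7 (28%) were higher and 2 (8%) lower. Among all tested genes, 5.71% were higher and 11.2% lower. The median log2 fold change of the immediate early genes was 0.25. *Atf3*, a stress-induced repressor, was at 1.38, 1.76, 0.914, 0.728 and 1.01 CPM in the VEH mice and 1.41, 5.23, 6.44, 4.11 and 3.05 CPM in the MINO mice. MINO 70 lay inside the VEH range and the others were above it, with a log2 fold change of 1.36 (SE 0.30, adjusted p = 0.131 by limma). *Jun* was at 33.9 to 50.04 CPM in the VEH mice and 62.4, 126, 148, 45.4 and 63.2 CPM in the MINO mice. MINO 74 alone lay inside the VEH range, with a log2 fold change of 0.89 (SE 0.28, adjusted p = 0.185 by limma). *Egr1*, a growth factor-induced activator, was lower, at 34.6, 26.7, 18.7, 30.1 and 50.4 CPM in the VEH mice and 17.97, 14.02, 21.4, 8.46 and 9.36 CPM in the MINO mice. MINO 72 alone lay inside the VEH range, with a log2 fold change of -1.16. Without the 4 libraries highest in adrenal markers, *Egr1* had a log2 fold change of -0.44 and did not pass. The higher count was 4 without VEH 67 or MINO 71, 2 without both MINO 72 and MINO 75, and 11 without MINO 70, and the lower count was 5 without VEH 65, 4 without VEH 66 and 6 without MINO 72. Of 22 tested genes of gluconeogenesis and insulin signaling, 1 (4.55%), *Sik1*, was higher and 4 (18.2%) lower. The shares of all tested genes were 5.71% and 11.2%, and the median of the list was -0.09. The lower count was 2 without VEH 64, MINO 71 or MINO 74, and the higher count was 2 without VEH 64 or VEH 67 and 4 without MINO 70. *Sik1*, a kinase that restrains gluconeogenesis, was above all VEH mice in all MINO mice, with a log2 fold change of 1.14.

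The shares below stand beside 5.71% higher and 11.2% lower among all tested genes. Glycogen genes gave 0 higher and 3 lower of 19 (15.8%), with a median log2 fold change of -0.11, and the lower count was 1 without VEH 65 or MINO 75 and 5 without MINO 70. With the 4 mice per group that the paper lists, without both MINO 72 and MINO 75, or without the 4 libraries highest in adrenal markers, 0 glycogen genes were lower by limma at an unadjusted p under 0.05. Of these genes 1 was higher without VEH 65 and 2 without MINO 70. Glucocorticoid targets gave 0 higher and 2 lower of 18 (11.1%), with a median of 0.15 that ran from 0.01 without VEH 67 to 0.26 without MINO 70, and 1 lower without VEH 64, VEH 65, VEH 66, VEH 67, MINO 70 or MINO 71. Without MINO 70, 5 of these targets were higher, and without VEH 66, 1 was. In the unfolded protein and integrated stress response, 2 of 17 (11.8%) were higher and 4 (23.5%) lower, with a median of -0.10. There the higher count was 1 without VEH 64, VEH 65, MINO 72 or MINO 75 and 0 by limma at an unadjusted p under 0.05 without VEH 66, and the lower count was 2 without MINO 74. Acute phase proteins gave 0 higher and 3 lower of 25 (12%), with a median of -0.03, and 5 lower without MINO 70. There, 2 were higher without VEH 64 or MINO 74 and 1 without MINO 70, MINO 71 or MINO 72. Genes of xenobiotic metabolism gave 0 higher and 3 lower of 30 (10%), with a median of -0.01, and 2 were higher without VEH 64 and 1 without VEH 66 or MINO 75. In the cell cycle list, 0 were higher and 1 of 13 (7.69%) lower, *Birc5*, with a median of -0.05. *Birc5* did not pass without VEH 64 (-0.40), VEH 65 (-0.39), VEH 66 (-0.41), VEH 69 (-0.40), MINO 70 (-0.26), MINO 71 (-0.44) or MINO 74 (-0.41). The cell cycle count was 2 without MINO 72. Periportal hepatocyte genes gave 0 higher and 3 lower of 8 (37.5%), with a median of -0.21, and pericentral ones 0 higher and 1 lower of 9 (11.1%), with a median of -0.11. The pericentral count was 2 without VEH 64, MINO 71 or MINO 74 and 0 without VEH 69 by limma at an unadjusted p under 0.05. Without MINO 72, 2 pericentral genes and 1 periportal gene were higher, and without MINO 75, 1 pericentral gene was. *Hal*, which breaks down histidine in periportal cells, was at 542, 513, 417, 527 and 489 CPM in the VEH mice and 430, 266, 302, 379 and 342 CPM in the MINO mice. MINO 70 was above VEH 66 alone, with a log2 fold change of -0.55 (SE 0.12, adjusted p = 0.131 by limma). Of 6 cholangiocyte and 3 mesothelial genes tested, 0 passed in limma at an unadjusted p under 0.05, with medians of 0.08 and 0.15, and 1 cholangiocyte gene was higher without VEH 64 or MINO 70. Among the 14 genes that the study's text names, 3 (21.4%) were higher and 3 (21.4%) lower, with a median of -0.03 and 5 lower without MINO 70. The higher count was 4 without VEH 65 and 4 with the 4 mice per group that the paper lists. They are no independent list, since the study picked some of them from RNA-Seq of these livers.

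**Figure D4:**
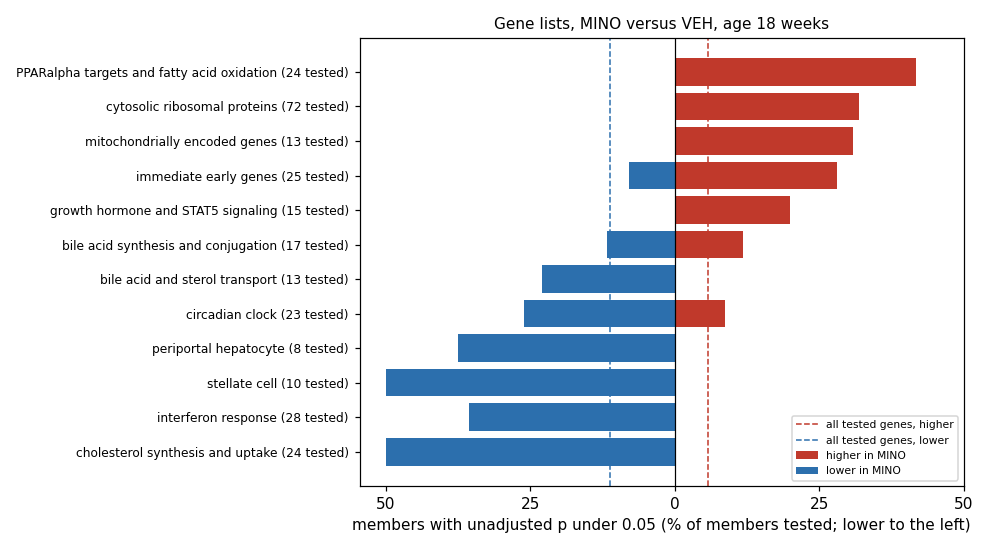
Percent of tested genes with an unadjusted limma p under 0.05 in 12 gene lists at age 18 weeks, higher in MINO mice to the right and lower to the left. Dashed lines mark all tested genes, 5.71% higher and 11.2% lower. Cholesterol synthesis and uptake reached 50% lower and PPARα targets 41.7% higher.

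The mice of age 12 weeks are other animals with their own controls, so they show whether a difference at 18 weeks was present in a separate set of mice when dosing ended. Each age had been normalized in its own table, and only treatment effects were set side by side. At 12 weeks, 577 of 13189 genes tested (4.37%) were higher and 3230 (24.5%) lower at an unadjusted p under 0.05, and 65.0% of all genes had a log2 fold change below 0. At an adjusted limma p under 0.05 there were 1364 genes at 12 weeks. That lean makes a shared negative sign common among any genes. Of the 753 genes higher at 18 weeks, 718 were tested at 12 weeks, where 87.5% had the same sign and 187 (26.04%) passed in the same direction. Of the 1475 lower genes, 1467 were tested, 94.8% had the same sign and 810 (55.2%) passed. Of the 32 genes 2-fold higher at 18 weeks, 15 were tested at 12 weeks, 13 had the same sign and 8 passed. The other 17, muscle genes among them, were under 1 CPM at 12 weeks. Of the 20 genes 2-fold lower, all 20 were tested, 17 had the same sign and 13 passed. *Acot4* and *Igha* had the same sign at both ages, with log2 fold changes at 12 weeks of 0.81 and -1.47, and effects at 18 weeks that differed from these by -0.03 and -0.71. Neither difference passed the unadjusted test.

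A direct test of the difference between ages used all 20 mice. The treatment effect differed at an unadjusted p under 0.05 in 1248 of 13215 genes (9.44%), and at an adjusted limma p under 0.05 in 0. The lowest adjusted p was 0.0836. Kupffer cell genes, with a median log2 fold change of 0.04 at 18 weeks, had a median of -0.81 at 12 weeks. At that age 9 of 10 were lower, against 24.5% of all genes. The difference between ages passed the unadjusted test in 9 of the 10, all less negative at 18 weeks. In sinusoidal endothelial cell genes the medians were -0.11 and -0.81, and the difference passed in 9 of 9. For collagens and extracellular matrix the medians were -0.12 and -0.64, with 23 of 27 genes lower at 12 weeks, and the difference passed in 14 of 27. *Ighm* was higher at 18 weeks, by 0.73, and had a log2 fold change of -0.92 at 12 weeks, and the difference between ages was 1.65. Of the interferon response genes, 10 of 28 were lower at 18 weeks, against 11.2% of all genes, and 12 of 29 at 12 weeks, against 24.5% of all genes. Their medians were -0.24 and -0.40, and the difference passed in 2 of 28. PPARα targets had medians of 0.19 and 0.14, and the difference passed in 2 of 24. Of the 23 clock genes tested at 12 weeks, 8 were higher and 2 lower, against 4.37% and 24.5% of all genes. The difference between ages passed in 5 of 23, all more negative at 18 weeks. Whether these differences between ages follow from age, from time without the drug or from the hour of tissue collection cannot be told apart.

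**Figure D5:**
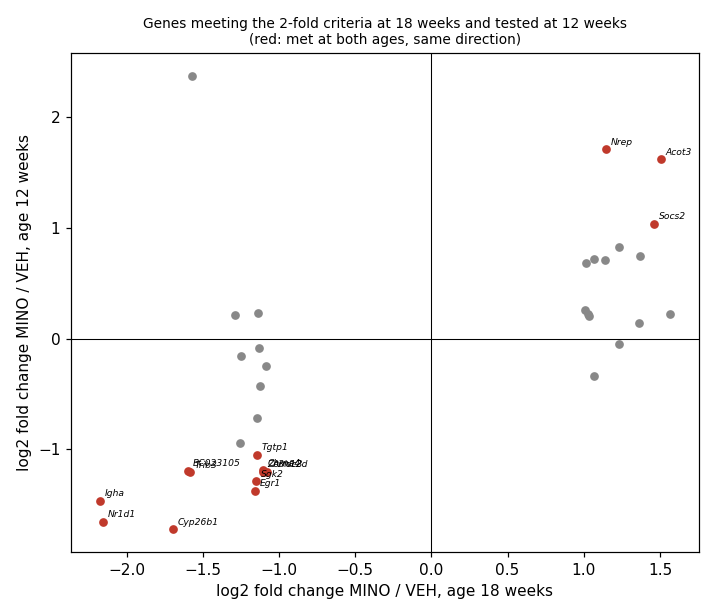
Log2 fold change of MINO versus VEH mice at age 18 weeks (x axis) and age 12 weeks (y axis) for the 35 genes that were 2-fold different at 18 weeks and tested at 12 weeks, a point per gene. Red points met the 2-fold criteria at both ages, 3 of them higher and 11 lower.

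With 5 mice per group, no gene (0 of 13188) passed adjustment in limma, while 2228 had an unadjusted p under 0.05, so single genes are candidates only. MINO 70 resembled the VEH mice, and marker sums of adrenal gland, muscle and fat varied between libraries, for a cause that was not tested. Bulk values do not separate cell number from expression. Time of day, housing and cage were not given in the labels. CPM fixes every library at the same total, so a rise of abundant genes lowers the others. The deposited values did not allow a test on read counts, and fold changes of genes near 0.5 CPM are understated by the pseudocount.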

How the data were processed

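Total RNA of 20 mouse livers was sequenced as strand-specific libraries of polyadenylated RNA. Per the processing notes, the authors aligned reads to GRCm38 (mm10) with STAR 2.7.8a in Partek 10.0.22.1023. The counting tool and annotation are not given in the sources used here. The authors deposited CPM, with 0.0001 added to each value, in a table per age. Of the low values, 72.5% to 75.7% per library were whole reads within 0.02 read, so read counts were not recovered. Depth was estimated from the CPM of 1 read.

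Genes whose mean reached 1 CPM over the 10 mice of age 18 weeks entered a 2-sided test in limma (version 3.58.1, R 4.3.3), moderated with an intensity trend, on log2(CPM + 0.5), adjusted by Benjamini-Hochberg. Single genes were also compared by 2-sided exact permutation tests. Treatment effects at the 2 ages were compared by an interaction term in limma over 20 mice. The method was tested on simulated data. Gene lists were described by counts and medians. Transcript overlaps came from GENCODE M21 and promoters from the RefSeq table of GRCm38.

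Genes named were the 12 highest and 12 lowest log2 fold changes among 2-fold genes, the 10 with the lowest p, those 2-fold in the same direction at both ages, up to 4 members with the lowest p of each list, the 5 most like *Nr1d1*, and the 14 genes of the study's text (*Cyp7a1*, *Nrep*, *Acot3*, *Nr1d1*, *Sgk2*, *Depp1*, *Nr0b2*, *Cyp8b1*, *Cyp27a1*, *Cyp7b1*, *Slc27a5*, *Baat*, *Igf1* and *Fgfr4*). The comparison, lists and rule were chosen with earlier results on these mice known. Alternatives were a pseudocount of 0.1 or 1, testing every gene, testing genes of at least 10 CPM, division of each library by the median of its gene-wise ratios to the mean (geometric) library, limma without the trend, no moderation, linear CPM, the 4 mice per group that the paper lists, and leaving out each mouse in turn.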

Additional observations from a re-analysis of the deposited data

Results flagged for a closer look

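The genes with the largest 2-fold differences, those with the lowest p, those 2-fold at both ages and those of the study's text, 49 genes in 98 groups of 5 mice were checked for a mouse far from the rest of its group. In 20 cases the gap between the highest or lowest mouse and its neighbor was above Dixon's critical value, which chance exceeds in about 1 in 20 groups. Of these, 11 were in MINO 71, the library with the most skeletal muscle signal. Its values were 51.8 CPM for *Acta1*, 22.5 for *Myh1*, 19.7 for *Ckm*, 16.2 for *Atp2a1*, 12.6 for *Tnnt3* and 12.8 for *Ttn*. They were 10.9 CPM for *Mb*, 7.21 for *Tnni2*, 7.17 for *Tnnc2*, 6.93 for *Tcap* and 10.98 for *H19*. In VEH mice, near 0, VEH 66 was highest for *Myh1* (0.0871 CPM) and *Tnni2* (0.0436 CPM) and VEH 69 for *Tcap* (0.241 CPM). Those of *Myh1* and *Tnni2* are 2 reads and 1 read against none, under the floor of 3 reads, so the gap says nothing about them.

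MINO 75 was the highest MINO mouse for *Cyp26b1*, an enzyme that breaks down retinoic acid, at 20.6 CPM, whereas the other MINO mice were at 5.34, 0.932, 0.920 and 1.17 CPM. *Cyp26b1* did not pass without MINO 71 (-1.39) or MINO 72 (-1.39). VEH 69 was highest for *Ctrb1*, a pancreatic gene, at 10.1 CPM, and VEH 65 for *Gm20431* at 6.84 CPM. *Rab23* was highest among VEH mice in VEH 65 (15.5 CPM) and lowest among MINO mice in MINO 75 (5.91 CPM). MINO 70 was at 130 CPM for *Arrdc3*, inside the VEH range, and the other MINO mice were at 25.4 to 38.0 CPM. *Arrdc3* did not pass without VEH 67 (-0.79), VEH 69 (-0.997), MINO 71 (-0.91), MINO 72 (-0.97) or MINO 74 (-0.94).

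The treatment effect differed between the ages at an unadjusted p under 0.05 in 9 of 44 of these genes that could be compared, against 1248 of 13215 (9.44%) among all genes, and in 0 of 13215 genes at an adjusted limma p under 0.05. The log2 effect at 18 weeks minus that at 12 weeks was 3.53 for *Acta1*, 2.54 for *Myh1*, 2.55 for *Ckm*, 2.42 for *Atp2a1*, 2.39 for *Tnnt3* and 1.56 for *H19*. It was 1.41 for *E2f8*, -3.95 for *Ctrb1* and -1.51 for *Gm20431*. Most of the genes were chosen for their difference at 18 weeks, which favors a difference between ages in all of these. The muscle genes were near 0 in VEH mice and under 1 CPM at 12 weeks, and reached the mean for testing mainly through the MINO libraries of 18 weeks, so the filter favored that difference. The causes were not tested.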

How the results depend on the processing

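No paired analysis was possible because each mouse number belongs to 1 group alone. With pseudocounts of 0.1 and 1, no filter, limma without the trend, no moderation, linear CPM and rescaling, the main counts stayed within 1.5 times of those given, apart from the values that follow. A minimum mean of 10 CPM gave 7 genes 2-fold higher and 9 lower, and 520 whose treatment effect differed between ages, with fewer genes tested. The count of genes whose effect differed between ages was not run without moderation or with linear CPM. The 4 mice per group that the paper lists, without VEH 65 and MINO 75, gave 393 higher and 658 lower genes at an unadjusted p under 0.05, and 13 that were 2-fold lower. Without MINO 72 and MINO 75 the unadjusted counts were 482 and 880. Without the 4 libraries highest in adrenal markers they were 422 and 491. Leaving out MINO 72 and MINO 75, or the 4 libraries highest in adrenal markers, was chosen after seeing the data. So was counting list members under each alternative.

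With each mouse left out in turn, higher genes at an unadjusted p under 0.05 numbered 511 (without MINO 75) to 1107 (without MINO 70), and lower genes 947 (without VEH 65) to 1928 (without MINO 70). By the 2-fold criteria 25 (without MINO 75) to 56 (without MINO 70) were higher and 17 (without MINO 74) to 35 (without MINO 70) were lower. At an adjusted limma p under 0.05 there were 0 to 323 genes, the latter without MINO 70, against 2228 at an unadjusted p under 0.05 with all mice.

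Of 144 named genes that passed, none changed direction (0 reversed) under any alternative in which it was tested. Where leaving out libraries took a gene under a mean of 1 CPM, it was not tested and is not counted as lost. An unadjusted p under 0.05 was lost by 0 with pseudocounts of 0.1 and 1 and with no filter, 9 after rescaling, 6 without the trend, 28 without moderation and 32 with linear CPM. It was lost by 40 of 142 with the listed mice, 32 of 141 without MINO 72 and MINO 75, and 75 of 130 without the libraries highest in adrenal markers. The last of these keeps only MINO 70 and MINO 72 of the MINO mice, and why genes were lost there was not tested. Leaving out a mouse cost 8 (without MINO 70) to 25 genes (without VEH 67). Depth limits genes near the 3-read floor of 0.1003 to 0.132 CPM, such as the muscle genes in VEH mice.

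Without 1 mouse or another, medians near 0 changed sign in the lists of bile acid synthesis, male-biased genes, acute phase proteins, xenobiotic metabolism, cell cycle, pericentral hepatocytes, Kupffer cells and the study's text. Without the 4 libraries highest in adrenal markers, further lists had 0 lower or 0 higher genes left by limma at an unadjusted p under 0.05. For lower genes these were acute phase proteins, MHC class II, cell cycle, pericentral hepatocytes, hepatocytes, immediate early genes and exocrine pancreas. For higher genes they were bile acid synthesis, collagens and extracellular matrix, sinusoidal endothelial cells and mitochondrially encoded genes.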
